A study of Mus musculus with 6 samples.

Results

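MHC class I and its antigen-loading machinery were followed through 7 genes, H2-D1, H2-K1, H2-T23, B2m, Tap1, Tap2 and Tapbp, in brains of mice lacking Dap12. Members were all probe sets (sets of short probes for 1 transcript) whose only gene symbol in the platform annotation was one of these names. This gave 22 of the 45101 probe sets on the array: 9 for H2-D1, 4 for H2-K1, 2 for B2m, 4 for Tap1, 1 for Tap2, 2 for Tapbp and 0 for H2-T23. Another 5 probe sets carried a member's name together with other symbols, both that named H2-T23 among them, and were left out, so H2-T23 was not analysed here. The arrays were one-colour Affymetrix arrays of total RNA from mice of 1 month of age, 3 Dap12-ko (67, 68 and Ko1) and 3 Dap12-het (75, 76 and 81). The design gives the tissue as midbrain with diencephalon and basal ganglia, and the source label calls the brain Dap12-deficient for the heterozygous samples too, so the groups rest on the titles. Dap12 is the adaptor protein encoded by Tyrobp, through which Trem2 and other receptors of microglia signal. The knockout allele, the strain, the H2 haplotype, the sex and any kinship of the mice are not given in the sources used here, and p-values reflect only how far these 6 samples vary.

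MHC class I molecules carry peptides from the cytosol to the cell surface, where CD8 T cells and natural killer cells read them. A heavy chain (H2-D1, H2-K1 or the non-classical H2-T23) pairs with the light chain B2m. The proteasome makes the peptides, the transporter formed by Tap1 and Tap2 pumps them into the endoplasmic reticulum, and Tapbp (tapasin) holds the empty heavy chain next to the transporter until a peptide fits. In the brain, endothelium, microglia and some neurons make class I, and interferons raise it. The heavy chains are among the most variable genes between mouse strains and are close relatives of each other, so a probe set can read several class I transcripts, or read one allele less well than another. In these arrays 11 of the 13 H2-D1 and H2-K1 probe sets have names ending in _x_at, the maker's mark for probes that also match other sequences.

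Probe sets of B2m, and some of H2-D1 and H2-K1 but not others, were lowest on knockout 67 and 68. The promoters of the heavy chains, of B2m and of Tap1 are shown for this and because the first 3 genes share known control elements. They are RefSeq windows of 300 bases on GRCm38.p6, from 250 bases before to 50 after the annotated start, 5′ to 3′ on the gene's strand: chr17:35262844-35263143 (H2-D1, plus), chr17:34000298-34000597 (H2-K1, minus, the first of 2 windows listed), chr2:122147437-122147736 (B2m, plus) and chr17:34187306-34187605 (Tap1, plus). Capitals mark matches on either strand to 3 motifs, spelled after these sequences had been read: GGGNNTTNC (the NF-kB site), TTTCNNTT (the interferon-response element) and TGACG (the core of the CRE-like site).
H2-D1: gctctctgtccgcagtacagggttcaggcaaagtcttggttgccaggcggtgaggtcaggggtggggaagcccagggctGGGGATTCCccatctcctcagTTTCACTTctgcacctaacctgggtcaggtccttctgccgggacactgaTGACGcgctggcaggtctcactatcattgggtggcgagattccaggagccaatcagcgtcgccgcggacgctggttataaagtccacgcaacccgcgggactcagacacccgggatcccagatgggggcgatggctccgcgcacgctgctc
H2-K1: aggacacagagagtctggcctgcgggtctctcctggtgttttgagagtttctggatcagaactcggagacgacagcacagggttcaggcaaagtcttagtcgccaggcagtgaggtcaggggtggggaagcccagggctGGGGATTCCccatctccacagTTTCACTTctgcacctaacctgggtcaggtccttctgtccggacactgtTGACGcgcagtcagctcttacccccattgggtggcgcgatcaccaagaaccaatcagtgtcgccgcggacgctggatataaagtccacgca
B2m: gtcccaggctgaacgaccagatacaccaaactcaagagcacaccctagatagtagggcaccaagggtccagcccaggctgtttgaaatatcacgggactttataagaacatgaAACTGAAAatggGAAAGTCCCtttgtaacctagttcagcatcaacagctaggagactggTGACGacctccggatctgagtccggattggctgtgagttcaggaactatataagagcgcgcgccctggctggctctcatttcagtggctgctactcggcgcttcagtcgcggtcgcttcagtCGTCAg
Tap1: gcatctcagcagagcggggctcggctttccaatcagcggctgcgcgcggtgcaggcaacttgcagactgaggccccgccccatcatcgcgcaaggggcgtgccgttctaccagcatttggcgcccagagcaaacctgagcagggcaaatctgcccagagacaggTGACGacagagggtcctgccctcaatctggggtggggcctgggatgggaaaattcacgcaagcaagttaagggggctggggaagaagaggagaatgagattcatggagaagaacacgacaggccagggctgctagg

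H2-D1 and H2-K1 each held 1 match to each motif, in the same order, with the NF-kB-like match starting 171 and 111 bases before the annotated start. Over 227 aligned bases their promoters were identical at 206 (90.7%). B2m held 1 match to each of the first 2 motifs and 2 to the third, and Tap1 held a match to TGACG alone. Among all 32851 mouse promoter windows of this length 15.2% held GGGNNTTNC, 23.9% held TTTCNNTT and 20.8% held TGACG. A match describes letters in the window and does not show that a factor binds there. Whether these sites had a part in the signals was not tested.

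Several facts about the arrays touch every value below. Tyrobp, the targeted gene, was lower on each knockout array than on each heterozygous array (log2 change -1.68 ± 0.33, SE; limma adjusted p = 0.0439). It was not called with a floor of 1 (-3.02, limma adjusted p = 0.104), without a filter (0.0952) or without trend (0.0505). The median signal stood at 40.4, 35.8 and 24.7 for knockout 67, 68 and Ko1, with 20.3 to 22 for the heterozygous arrays. The highest signal of any probe set was 7417 to 7790 on the heterozygous arrays and at least 16673 on each knockout array. Over the 22518 probe sets tested, the heterozygous arrays correlated at 0.953 to 0.981 with each other, knockout Ko1 at 0.909 to 0.93 with them, and knockout 67 and 68 at 0.85 to 0.894. Of 43 spiked control probe sets, which measure no mouse transcript, 41 were higher on all 3 knockout arrays than on any heterozygous one, so genotype and a technical difference between the groups' arrays cannot be told apart. Results are therefore given by array.

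H2-D1, a classical class I heavy chain, was low on knockout 67 and 68. Its brightest probe set (1425545_x_at) had intensities of 49.1, 89.0 and 292 for knockout 67, 68 and Ko1, against 599, 467 and 331 for heterozygous 75, 76 and 81. The groups did not overlap, but knockout Ko1 lay much nearer to heterozygous 81 than to the other knockout arrays. The group means were 143 ± 130 against 466 ± 134 (SD, n = 3), and the fitted change on the log2(signal + 16) scale was -1.87 ± 0.51 (SE; limma adjusted p = 0.0925), with an exact permutation p of 0.1 (the smallest that 3 arrays against 3 can give). It therefore did not pass the threshold of 0.05. In such tissue RNA, fewer cells that make a transcript and less transcript per cell cannot be told apart.

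The second H2-D1 probe set (1451784_x_at) read 24.5, 94.6 and 212 for knockout 67, 68 and Ko1, against 579, 472 and 291 for heterozygous 75, 76 and 81. It ranked the 6 arrays in the same order as the brightest one, again with no overlap, and changed by -2.15 ± 0.56 (SE; limma adjusted p = 0.0828; exact permutation p = 0.1). The third (1451683_x_at) did not follow them. It read 40.5, 58.3 and 33.2 on the knockout arrays and 79.2, 70.2 and 37.9 on the heterozygous arrays, so that the groups overlapped (-0.37 ± 0.30, SE; limma adjusted p = 0.518). On this probe set the lowest array was knockout Ko1, not knockout 67.

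The other 6 H2-D1 probe sets were too dim to be tested, with every signal at or under 38.1. One of them (1426324_at) read 6.91, 5.88 and 17.7 for knockout 67, 68 and Ko1, against 35.2, 38.1 and 22.5 for heterozygous 75, 76 and 81, lower on every knockout array. Another (1451934_at) went the opposite way, with 28.4, 24.7 and 13.4 on the knockout arrays and 9.05, 2.08 and 5.07 on the heterozygous arrays. With no filter on level these changed by -0.89 ± 0.33 and 0.83 ± 0.29 (SE; limma adjusted p = 0.237 and 0.218). In that fit 0 of the 22 members were called, against 0.275% of all 45037 probe sets. An unadjusted p under 0.05 was reached by 5 members, and by 7614 of the 45037. Averaged over its 9 probe sets on the log2 scale, H2-D1 was at 4.96, 5.32 and 5.37 for knockout 67, 68 and Ko1, against 5.87, 5.75 and 5.40 for heterozygous 75, 76 and 81. That difference was -0.46 (exact permutation p = 0.1).

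H2-K1, the other classical heavy chain represented here, gave different answers on its 2 brighter probe sets. One of them (1451931_x_at) read 75.6, 84.5 and 175 for knockout 67, 68 and Ko1, against 364, 246 and 177 for heterozygous 75, 76 and 81. It ranked the arrays exactly as the 2 brightest H2-D1 probe sets did, an order found in 0.799% of the 22518 probe sets tested. That order was taken from H2-D1 in these data, and the other tested H2-K1 probe sets ranked the arrays otherwise. The probe sets that share it are all _x_at and can read the same class I transcripts, so the match is no separate result. The change of 1451931_x_at was -1.15 ± 0.35 (SE; limma adjusted p = 0.114; exact permutation p = 0.1). Knockout Ko1 and heterozygous 81 were almost equal on it. The brightest H2-K1 probe set (1425336_x_at) read 195, 221 and 130 on the knockout arrays and 268, 195 and 154 on the heterozygous arrays. There knockout 67 and 68 lay inside the heterozygous range and knockout Ko1 was lowest (-0.16 ± 0.27, SE; limma adjusted p = 0.77).

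A dimmer H2-K1 probe set (1427746_x_at) read 42.0, 43.4 and 24.2 for knockout 67, 68 and Ko1, against 25.2, 31.5 and 17.8 for heterozygous 75, 76 and 81 (0.36 ± 0.29, SE; limma adjusted p = 0.522), and by -0.02 with quantile normalization and -0.05 with arrays centred on their medians. As deposited, knockout 67 and 68 were the highest of the 6 arrays on it. The fourth (1450534_x_at) was too dim to be tested, between 0.493 and 17.8. Averaged over the 4 probe sets, H2-K1 differed by -0.24 on the log2 scale (exact permutation p = 0.4).

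**Figure D1:**
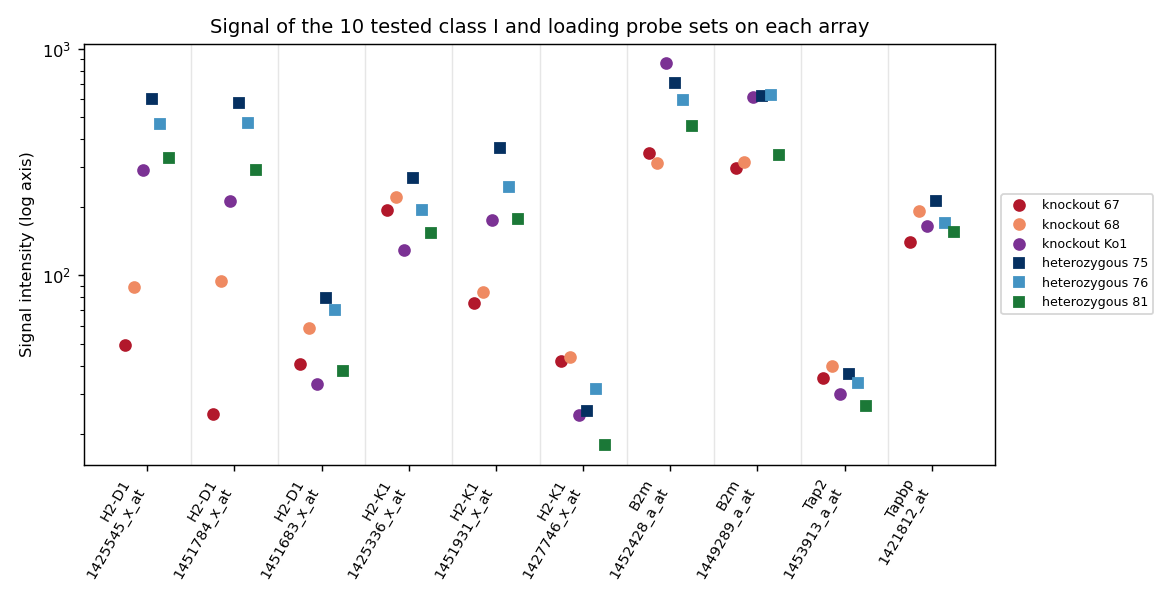
Signal intensity (log axis) of the 10 class I and loading probe sets that were tested, with 1 point for each of the 3 knockout arrays (circles) and 3 heterozygous arrays (squares). Knockout 67 and 68 lie lowest for both bright H2-D1 probe sets, for H2-K1 1451931_x_at and for B2m, while knockout Ko1 is highest for B2m 1452428_a_at at 864.

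Within an array, probe sets of the same heavy chain stood at different distances on knockout 67 and 68 than on the other arrays. The brightest H2-K1 probe set minus 1451931_x_at was 1.20 and 1.24 on the log2 scale on knockout 67 and 68 and -0.39 on knockout Ko1. It was -0.42, -0.31 and -0.18 on heterozygous 75, 76 and 81, so knockout Ko1 lay within the heterozygous range. The difference between the groups was 0.99 (exact permutation p = 0.3; adjusted p = 0.7 over the 5 genes with at least 2 probe sets, with 1 pair each). The 2 brightest H2-D1 probe sets stayed closer together, with differences from -0.08 to 0.69 over all arrays (exact permutation p = 0.4).

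The brightest H2-D1 probe set minus the third was chosen for display after its values were seen, and has no test. It was 0.20 and 0.50 on knockout 67 and 68, against 2.65 on knockout Ko1 and 2.69, 2.49 and 2.69 on heterozygous 75, 76 and 81. The range over the 6 arrays was thus 2.49, and for the H2-K1 pair above it was 1.66. Among all 13593 pairs of tested probe sets of a shared gene, 9.0% had a range at least as wide as that H2-D1 pair and 32.7% as wide as that H2-K1 pair. The widest pairs of each gene ranged over 3.13 (H2-D1 1451683_x_at and 1451784_x_at, 2.77% of all pairs) and 2.54 (H2-K1 1427746_x_at and 1451931_x_at, 8.14%). Ranges as wide were thus also found between probe sets of other genes. A range takes no account of which arrays stand apart. Whether the H2 haplotype differed between the mice, and its part in these values, was not tested.

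**Figure D2:**
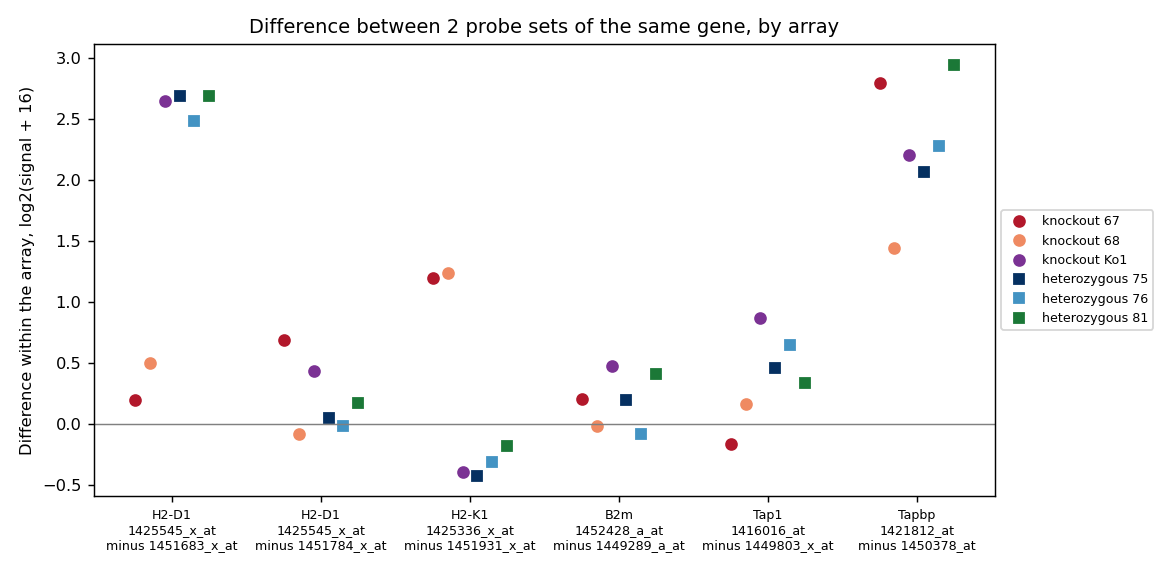
Difference within each array, in log2(signal + 16), between 2 probe sets of the same gene, with knockout arrays as circles and heterozygous arrays as squares. For the leftmost H2-D1 pair knockout 67 and 68 stand at 0.20 and 0.50 and the other 4 arrays between 2.49 and 2.69, and for H2-K1 they stand at 1.20 and 1.24 with the others below 0.

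B2m, the light chain of all class I molecules, was measured by 2 bright probe sets that behaved alike. One (1452428_a_at) read 348, 314 and 864 for knockout 67, 68 and Ko1, against 709, 591 and 454 for heterozygous 75, 76 and 81. The other (1449289_a_at) read 299, 316 and 615 on the knockout arrays and 616, 626 and 338 on the heterozygous arrays. On both, knockout 67 and 68 were the lowest of the 6 arrays and heterozygous 81 the lowest of its group. Knockout Ko1 was the highest array on the first and within the heterozygous range on the second. The fitted changes were -0.32 ± 0.37 and -0.38 ± 0.33 (SE; limma adjusted p = 0.652 and 0.557). With knockout 67 and 68 both left out the changes turned to 0.57 and 0.27. The within-array difference of the B2m pair ranged over 0.56, and 94.0% of all pairs had a range at least as wide.

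Of the loading genes, Tap1, a subunit of the peptide transporter, was dim on all arrays. Its 4 probe sets had mean signals of 1.45 to 22.5 over the 6 arrays and none was tested. The brightest (1416016_at) read 24.9, 35.7 and 25.9 for knockout 67, 68 and Ko1, against 20.8, 18.3 and 9.22 for heterozygous 75, 76 and 81. The knockout arrays were all higher there, and with no filter on level it changed by 0.49 ± 0.32 (SE; limma adjusted p = 0.448). Averaged over its 4 probe sets Tap1 was also higher on every knockout array, by 0.45 on the log2 scale (exact permutation p = 0.1). With arrays centred on their medians that difference was 0.04, and that of the H2-D1 mean -0.86 in place of -0.46. Without a filter on level the median change of all probe sets was 0.16, with 35.7% below 0.

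Tap2, the partner subunit of Tap1, showed nearly equal groups. Its probe set read 35.4, 39.8 and 29.8 for knockout 67, 68 and Ko1, against 36.7, 33.5 and 26.4 for heterozygous 75, 76 and 81 (0.08 ± 0.25, SE; limma adjusted p = 0.884). Tapbp, the tapasin gene, read 141, 192 and 166 on the knockout arrays and 213, 169 and 156 on the heterozygous arrays on its brighter probe set (-0.10 ± 0.21, SE; limma adjusted p = 0.822). The dimmer Tapbp probe set was not tested and varied from 6.29 to 59.9. For both genes the spread within each group was as large as the distance between groups.

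Counted together, 10 of the 22 member probe sets were bright enough to be tested, 3 of them for H2-D1, 3 for H2-K1, 2 for B2m and 1 each for Tap2 and Tapbp. By limma 0 of the 10 were called at an adjusted p of 0.05, where 1.98% of all 22518 probe sets were, and 3 had an unadjusted p under 0.05. Those 3, all lower, were the 2 brightest H2-D1 probe sets and H2-K1 1451931_x_at. Over all probe sets 9.22% reached that p in the downward direction. The same 3 were lower on every knockout array, which was true of 12.5% of all probe sets tested, and 0 were higher on every one, which was true of 14.9%. The median change of the 10 was -0.34 and that of all probe sets tested 0.00. Below 0 were 8 of the 10, and 49.9% of all probe sets tested.

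The count depended on knockout Ko1. Without it 4 of the 10 members were called, all lower, against 11.3% of all probe sets called lower in that fit. They were 1425545_x_at (-2.5 ± 0.29) and 1451784_x_at (-2.74 ± 0.42) of H2-D1, 1451931_x_at of H2-K1 (-1.48 ± 0.28) and 1452428_a_at of B2m (-0.77 ± 0.20), with limma adjusted p from 0.0015 to 0.0269. Array weights, which gave knockout Ko1 the lowest weight of the 6 arrays (0.222), also called these 4, against 10.3% of all probe sets called lower. With knockout 67 and 68 left out instead, the knockout group was the single array Ko1, assumed to vary like the heterozygous arrays. In that fit 0 members were called (limma; 1 had an unadjusted p under 0.05), against 2.73% of all probe sets, and the brightest H2-D1 probe set was at -0.61 ± 0.32. Of all probe sets on the array, Tyrobp included, 0 were called by limma when knockout 67, knockout 68, heterozygous 75 or heterozygous 81 was left out, with 3926, 3566, 2846 and 3207 at an unadjusted p under 0.05.

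**Figure D3:**
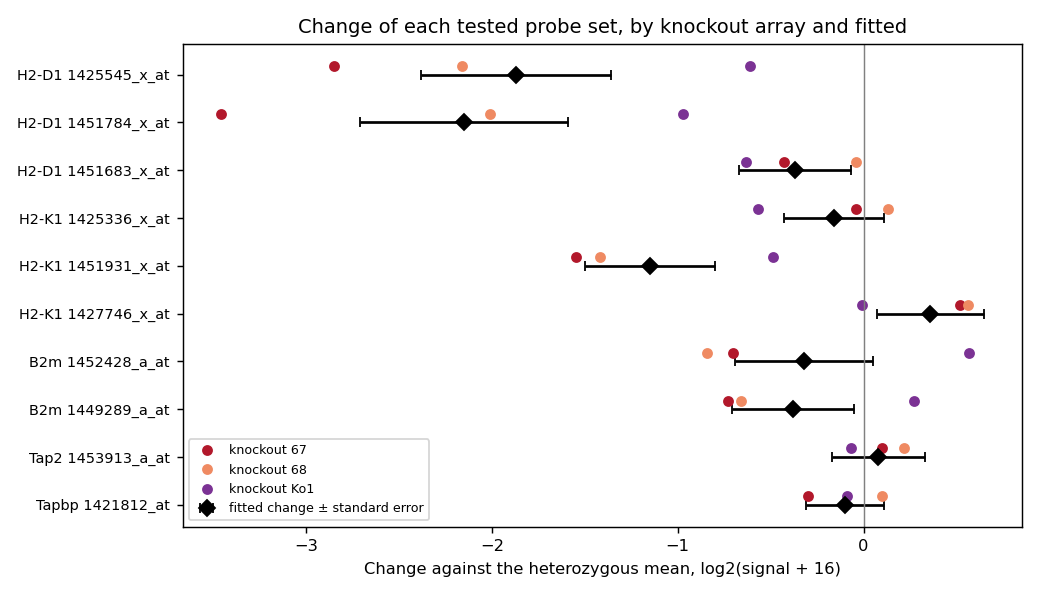
Change of each tested probe set in log2(signal + 16) against the mean of the 3 heterozygous arrays, with a circle for each knockout array and a diamond with standard error for the fitted change. For the brightest H2-D1 probe set the circles stand at -2.85, -2.16 and -0.61 for knockout 67, 68 and Ko1.

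Other genes listed beside the members, called pathway genes below, showed no called change. They were 86, among them 13 of class II and its loading and 14 receptors for class I and T cell genes. Of the 86, 58 had a probe set of their own and 27 were tested on the brightest one, 4 of these of class II and its loading. By limma 0 rose and 0 fell, against 1.36% of the 11467 genes tested that were called in either direction. An unadjusted p under 0.05 was reached by 6 of the 27, and by 4713 of all 22518 probe sets tested. The median change of the 27 was 0.11, against -0.09 over all genes, with 15 above 0 and 12 below. Of all genes tested 58.6% were below 0.

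Genes of the endoplasmic reticulum gave the smallest p of these lists, with 6 of 6 tested, 4 above 0 and 2 below. Calr, the chaperone calreticulin of the loading complex, read 597, 667 and 1414 for knockout 67, 68 and Ko1, against 2065, 2099 and 2133 for heterozygous 75, 76 and 81. Each knockout array was lower, knockout Ko1 least so (-1.33 ± 0.30, SE; limma adjusted p = 0.0619). The mean over the tested Calr probe sets was called (-1.15, limma adjusted p = 0.0386), and so was the brightest one without knockout Ko1 (-1.71, limma adjusted p = 0.00024). Erap1, which trims peptides in the endoplasmic reticulum, was higher on every knockout array, with 49.1, 62.4 and 28.5 against 22.3, 23.8 and 18.0 (0.71 ± 0.30, SE; limma adjusted p = 0.219). It was called without knockout Ko1 (0.94, limma adjusted p = 0.0375) and with array weights (0.88, 0.0334), and was at 0.37 with quantile normalization and 0.31 with centred arrays. Of all probe sets 23.2% were called in either direction without knockout Ko1, and Canx, the chaperone calnexin, was among them (-0.82, limma adjusted p = 0.00929).

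Among regulators of class I transcription 10 of 13 genes were tested, 5 above 0 and 5 below. Irf2, an interferon regulatory factor, changed by -0.90 ± 0.34 and Irf8, a factor of myeloid cells, by 0.59 ± 0.26 (SE; limma adjusted p = 0.177 and 0.233). Irf2 was called with array weights (-1.17, limma adjusted p = 0.0198), where 21.3% of all probe sets were called in either direction, and Irf8 was at 0.21 with quantile normalization and 0.19 with centred arrays. Irf1, an activator of class I and of Tap1, changed by -0.38 ± 0.31 (adjusted p = 0.521). Nlrc5, the class I transactivator, was too dim to be tested, at 37.8, 23.7 and 12 for knockout 67, 68 and Ko1, against 8.97, 11.7 and 2.90 for heterozygous 75, 76 and 81.

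Of the immunoproteasome and its activator PA28, 2 of 5 genes were tested. Psmb10 changed by -0.03 ± 0.23 and Psme1 by -0.07 ± 0.19 (SE; limma adjusted p = 0.963 and 0.857). Psmb9, the neighbour of Tap1 that shares its promoter region, was too dim, at 11.1, 47.1 and 22.9 for knockout 67, 68 and Ko1, against 18.8, 15.8 and 14.0 for heterozygous 75, 76 and 81. Psmb8 was too dim as well, from 2.45 to 31.5.

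Of other class I and class I-like genes 5 of 35 were tested, with 3 above 0 and 2 below. Mr1, which presents vitamin metabolites, changed by 0.74 ± 0.32 (0.34 with centred arrays) and H2-M3, which presents formylated peptides, by 0.40 ± 0.24 (SE; limma adjusted p = 0.228 and 0.38; H2-M3 was at -0.01 with arrays centred on their medians). Of 13 genes of class II and its loading 4 were tested. Ctss, the protease that degrades the invariant chain, changed by 0.33 ± 0.16, H2-Ab1, a class II chain, by -0.52 ± 0.30, and Cd74, the invariant chain, by 0.37 ± 0.41 (SE; limma adjusted p = 0.288, 0.357 and 0.641). Centred on array medians, Ctss and Cd74 were at -0.07 and -0.03. Of the 14 receptors for class I and T cell genes listed, 11 had a probe set of their own and none of these was bright enough to be tested.

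H2-D1 was set against its neighbours on chromosome 17. RefSeq places 179 genes from H2-K1 to H2-T23, of which 59 were tested, 3 of them members (H2-K1, Tap2 and H2-D1). Of the 56 others 3 fell and 0 rose, against the 1.36% of all genes called. They were Prrt1, a protein of AMPA receptor complexes (-1.55 ± 0.22), Ddx39b, an RNA helicase of splicing and export (-1.0 ± 0.17), and Prrc2a, an RNA-binding protein (-0.99 ± 0.17; SE; limma adjusted p = 0.0224, 0.0325 and 0.0342). Leaving out knockout 67, knockout 68 or any 1 of the heterozygous arrays ended all 3 calls. Those fits called 0 of all 22518 probe sets, or 29 without heterozygous 76, so the loss is not particular to these genes. Without trend Ddx39b and Prrc2a were not called (adjusted p = 0.0563 and 0.0548), nor was Ddx39b without a filter (0.0503) or Prrc2a with quantile normalization (0.0613). Unlike H2-D1, these 3 were about as low on knockout Ko1 (-1.58, -0.89 and -1.0) as on knockout 67 (-1.33, -0.97 and -1.02). Groups did not overlap, with the knockout lower, for 18 of the 56 (32.1%), against 16% of all genes tested.

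The median change of those 56 neighbours was -0.17, against -0.09 for all genes, and their changes ran from -1.55 to 0.97. The highest with the smallest p were Gtf2h4, a subunit of the transcription factor TFIIH (0.97 ± 0.23), Ddah2 (0.67 ± 0.19) and Ier3 (0.67 ± 0.33; SE; limma adjusted p = 0.0696, 0.0986 and 0.283). The change of the brightest H2-D1 probe set, -1.87 ± 0.51 (SE; limma adjusted p = 0.0925), lay below that of each of the 56, and so did that of the second (-2.15). The third H2-D1 probe set (-0.37) and the mean over all 9 (-0.46) lay within the range of the neighbours.

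**Figure D4:**
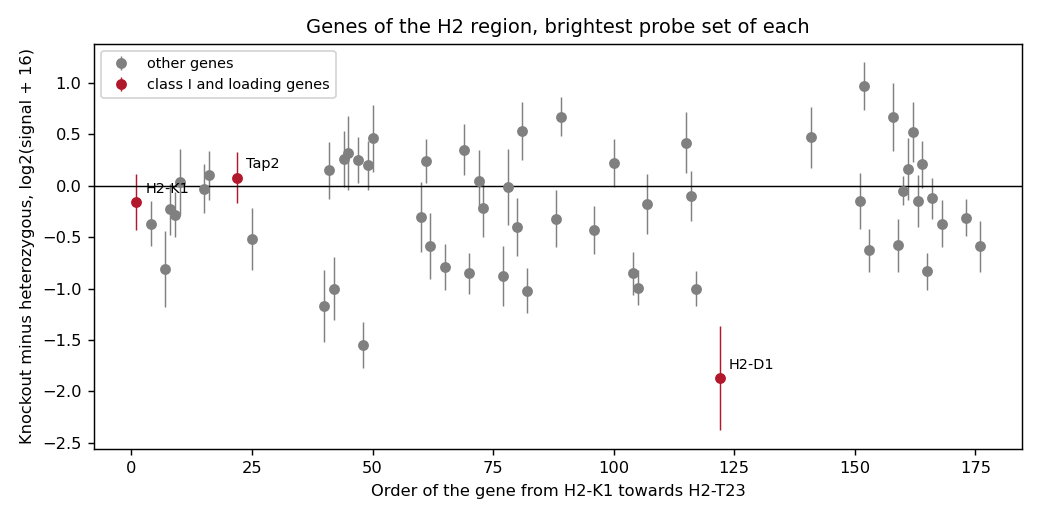
Fitted change (knockout minus heterozygous, log2(signal + 16), ± standard error) of the brightest probe set of 59 genes, by gene order on chromosome 17 from H2-K1 towards H2-T23. H2-D1 at -1.87 is the lowest point, H2-K1 and Tap2 lie near 0, and the lowest of the other genes stands at -1.55. Not plotted are the second H2-K1 probe set (-1.15) and the third H2-D1 probe set (-0.37).

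Marker lists of cell types differed between arrays beside these values. Choroid plexus markers summed to 16444 and 18046 on knockout 67 and 68, most of it from Ttr, but to 678 on knockout Ko1 and to 864, 1656 and 3775 on heterozygous 75, 76 and 81. Kl, Folr1, Aqp1 and Kcnj13 were also highest on knockout 67 and 68, but Clic6 was highest on knockout Ko1 and Otx2 on heterozygous 75. Thus the sum, led by Ttr, was high on the arrays where the 2 brightest H2-D1 probe sets and B2m were low. Of this list 7 of 7 markers had a probe set, with 6 tested, 6 above 0 and 0 called by limma. An unadjusted p under 0.05 was reached by 3, and by 4713 of all 22518 probe sets tested. Kl and Folr1 were called with array weights (1.27 and 1.2) and without knockout Ko1 (1.27 and 1.23). Of all probe sets 21.3% and 23.2% were called in those fits. The part of this list in the class I values was not tested. Oligodendrocyte markers (6 of 7 genes with a probe set) summed to 27152 to 64283 with the knockout and 19258 to 19495 with the heterozygous genotype, with 2 of 6 called higher, against the 1.36% of all genes. These were the myelin genes Mbp (1.85) and Mal (0.73), and with quantile normalization neither was called (0.33 and 0.41; limma adjusted p = 0.389 and 0.204), nor without a filter or without trend, nor Mal with centred arrays (0.33). Neither was called with 1 array left out, except without knockout Ko1. The other such fits called 0 of all 22518 probe sets, or 29 without heterozygous 76, so this is not particular to Mbp and Mal. On the heterozygous arrays Mbp read 5799 to 6439, near the highest signals of those arrays (7417 to 7790), while each knockout array reached at least 16673. Sums led by bright markers, here and below, therefore compare arrays of unlike signal range. They do not by themselves show a difference in cells, and the part of that range in them was not tested.

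Markers of microglia and of endothelium were set beside class I as well. Microglial markers (11 of 12 with a probe set, all tested, 9 above 0) summed to 2676 to 3082 on the knockout arrays and 1815 to 2304 on the heterozygous arrays. Endothelial and pericyte markers (12 of 13, all tested, 3 above 0) summed to 1985 to 2222 and 2179 to 2266, and 0 members of either list were called (limma; 3 and 1 at an unadjusted p under 0.05). Of all 22518 probe sets tested, 4713 had an unadjusted p under 0.05. The microglial markers below 0 were Tmem119 (-0.37, lower on every knockout array) and Aif1 (-0.18). C1qa of microglia changed by 0.91 ± 0.22 and Pdgfrb of pericytes by -0.75 ± 0.24 (SE; limma adjusted p = 0.0748 and 0.132). Other fits called some of them: C1qa with array weights and without knockout Ko1 (1.08 and 1.12), Cldn5 of endothelium without knockout Ko1 (0.68) and Pdgfrb with centred arrays (-1.16). Of all probe sets, 21.3% were called with array weights and 23.2% without knockout Ko1. With centred arrays 581 of the 22518 were called, and the median change of all was -0.4. P2ry12 of microglia was at 1.47 without knockout 67 and 68, where the single array Ko1 stood for the knockout group. Leukocyte markers were dim, with 2 of 11 tested and sums of 164 to 305 and 120 to 168. Meningeal markers (8 of 8 with a probe set) summed to 487 to 761 and 302 to 846. Neuronal markers (7 of 7 tested, 6 above 0, 0 called by limma, 3 at an unadjusted p under 0.05) summed to 16506 to 21038 on the knockout arrays, above the 13843 to 14276 of the heterozygous arrays. Astrocyte markers (7 of 7 tested, 3 above 0, 0 called, 3 at an unadjusted p under 0.05) summed to 13447 to 14104 and 10281 to 12595. Other fits called some neuronal and astrocyte markers too. Among those called with array weights and without knockout Ko1 were Snap25 (0.99 and 1.01), Rbfox3 (1.06 and 0.98) and Aldoc (0.45 and 0.49). Gfap was called with array weights (-1.21), and Snap25 also with the 75% filter (0.88). No marker had a signal of 0 on any array, and the part of these cells in the class I values was not tested.

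**Figure D5:**
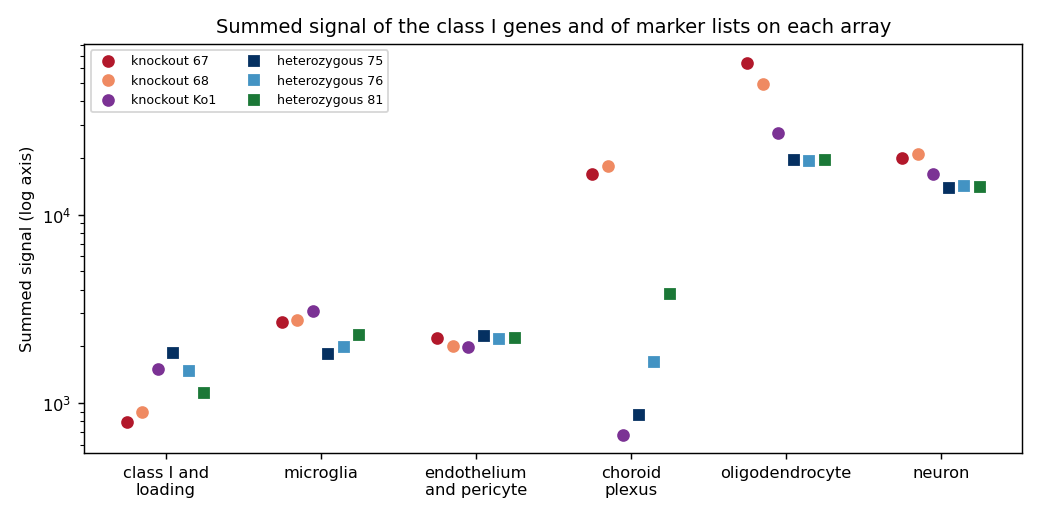
Summed signal (log axis) of the brightest probe set of each class I and loading gene and of each marker gene, by list and array, with knockout arrays as circles and heterozygous arrays as squares. The class I sum is lowest on knockout 67 and 68, where the choroid plexus sum is highest, and the endothelial sum stays between 1985 and 2266 on all 6 arrays.

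The probe sets whose pattern over the 6 arrays was most like that of the brightest H2-D1 probe set were found by the root mean square difference of their centred log2 values. They were Nol8 (0.22), Ltbp3 (0.23), Fyttd1 (0.27), the second H2-D1 probe set (0.27) and Agt, the angiotensinogen gene (0.31). Nol8 stood at -2.34, -2.23 and -0.31 against the heterozygous mean on knockout 67, 68 and Ko1, and Agt at -2.15, -1.66 and -0.34. These 4 other genes passed no threshold in the fit (changes from -1.63 to -1.38). They were picked for this likeness, so their lower values on knockout 67 and 68 than on knockout Ko1 are no separate result.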

How the data were processed

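The deposited table holds 1 linear signal intensity per probe set and array, made by the authors with GCOS, the Affymetrix scanner software, per the submitters' processing notes; its version, algorithm and detection calls are not given in the sources used here. RNA came from Trizol and RNeasy extraction with one-cycle biotin labelling, per the labels' protocols. The trimmed mean (2% at each end) was 100 on every array, and this scaling was kept.

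Control probe sets (64) were left out. Signals became log2(signal + 16), which understates changes of dim probe sets. Probe sets with a mean log2 value above the median were tested (22518 of 45037) with limma 3.58.1 in R 4.3.3: 1 term for group, eBayes with trend, two-sided, Benjamini-Hochberg over all of them, threshold 0.05. Errors are SE for log2 changes and SD (n = 3) for signals. Exact permutation tests over arrays were two-sided. The number of arrays limits precision. The procedure was tested on simulated data.

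Genes took 34945 probe sets with 1 symbol, updated through gene identifiers; lists used each gene's brightest probe set. Named were all member probe sets, the 2 genes of smallest p per list, 7 pathway genes fixed by name, 3 neighbours per direction and the 5 nearest patterns; not every marker gene so named is printed. Members and lists were chosen with earlier results of these data known. Alternatives were quantile normalization, median centring, a floor of 1, 64 added, no filter, a 75% filter, eBayes without trend or robust, array weights and left-out arrays. The H2 region was taken from RefSeq gene positions on GRCm38.p6.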

Additional observations from a re-analysis of the deposited data

Results flagged for a closer look

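Outside the transcripts compared, 41 of the 43 spiked control probe sets were higher on all 3 knockout arrays than on any heterozygous one, with a median difference of 1.74 on the log2 scale. They measure RNA added to the samples or the hybridisation and no mouse gene, and 0 of them were lower on every knockout array. Their part in the class I values was not tested. Groups of 3 arrays are too small for a search for single outlying arrays.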

How the results depend on the processing

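The 2 brightest H2-D1 probe sets and H2-K1 1451931_x_at kept their downward direction under every alternative run. As they were lower on every knockout array, only quantile normalization or centred arrays could have turned it. They changed by -1.93, -2.22 and -1.16 with quantile normalization, and by -2.27, -2.55 and -1.55 with centred arrays. Member probe sets called were 0 except 4 with array weights, and 0 to 4 when each array was left out in turn, the 4 without knockout Ko1. Pathway genes called were 4 with array weights, 1 by the mean of a gene's probe sets, and 0 to 4 with an array left out. All probe sets called were 445, but 129 with quantile normalization, 124 without a filter, 180 without trend, 4786 with array weights, and 0 to 5220 with an array left out, the 5220 without knockout Ko1. Centring arrays on their medians shifted the overall median change by -0.40.

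Signs turned as follows; the cause was not tested. With quantile normalization: H2-K1 1427746_x_at -0.02, Tap2 -0.27 (its only probe set), Psme1 0.06, Psmb10 0.08, Aldoc -0.11, the Tapbp mean -0.04 and the Tapbp pair difference 0.02. With arrays centred on their medians: H2-K1 1427746_x_at -0.05, Tap2 -0.32, H2-M3 -0.01, Ctss -0.07, Cd74 -0.03 and the Tapbp mean -0.36. With array weights: Fmod -0.31. Without knockout 67 and 68: H2-K1 1427746_x_at -0.01, B2m 0.57 and 0.27 (mean 0.42), Tap2 -0.07, Psmb10 0.08, Cldn5 -0.06, Lyz2 0.35, Ptprc 0.21, Irf1 0.17, the H2-K1 pair difference -0.08 and that of Tap1 0.39. With each array left out in turn: H2-K1 1425336_x_at from -0.34 to 0.04, Tap2 from -0.01 to 0.16, Tapbp 1421812_at from -0.20 to 0.02, Psme1 from -0.19 to 0.04, Psmb10 from -0.21 to 0.11, Ptprc from -0.46 to 0.10, Cd74 from -0.04 to 0.69, the Tapbp mean from -0.23 to 0.30, and the pair differences of B2m from -0.08 to 0.17, Tap1 from -0.48 to 0.04 and Tapbp from -0.60 to 0.07. No paired analysis was possible because the groups share no sample number. Dim signals limit Tap1, Nlrc5, Psmb8 and Psmb9.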
